A study of Mus musculus with 4 samples.

Results

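The immunoglobulin heavy variable genes (Ighv) of the mouse were described in 4 RNA-seq libraries of whole intestinal tissue. Members were chosen by name: each gene called Ighv followed by a family number, a hyphen and a gene number was taken, and a gene's level was the sum of its transcripts' FPKM, an estimate of fragments scaled to transcript length and to all mapped fragments. The rule found 183 genes, with 235 transcripts, of 55203 genes in the files. All 183 lay on the minus strand of chromosome 12, and the annotation lists 113 as variable genes and 70 as pseudogenes. Usage and diversity were described over the 72 genes with a mean of at least 1 FPKM over the 4 libraries. Values did not enter the choice of names, but the mean did set which genes were described. Just inside that limit stood Ighv2-3 at 1.05 FPKM and Ighv1-84 at 1.10, and just outside it Ighv7-4 at 0.98 and Ighv9-4 at 0.95.

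All 4 libraries came from wild-type C57BL/6NTac mice, adult males 8 to 12 weeks old, bought and kept under specific-pathogen-free conditions. In 2 libraries, called RVC 1 and RVC 2 here, the label names a treatment with 4 mM ribonucleoside vanadyl complex, an inhibitor of ribonucleases, and the other 2 were labelled fresh frozen. A single protocol, with an RVC rinse, was given for all 4, so how the fresh frozen tissue was handled otherwise is not stated. Nothing states that the libraries of a group came from separate mice, so the p-values measure only the spread between these libraries. Each library carried its own batch number, from 1 to 4, and batch and group therefore cannot be told apart.

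The labels call the tissue ileum, whereas the protocol names distal colon. All 5 colon genes were at 1 FPKM or more in each library, with Car1 at 1655 ± 90.2 FPKM (SD, n = 4). Of 5 ileum genes, Fgf15, Apoa4 and Defa17 were at 0 in all 4 libraries. The other 2, Fabp6 and Slc10a2, were at 1 FPKM or more in each library, with means of 3.37 and 2.73 FPKM. The data thus went against the label ileum.

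Each Ighv gene holds the code for most of the variable domain of an antibody heavy chain, the part that contacts antigen. A developing B cell joins 1 Ighv gene to a diversity (D) and a joining (J) segment, and the joined exon is then spliced to a constant region. Plasma cells of the gut wall make large amounts of heavy chain RNA, most of it joined to the alpha constant gene Igha. The RAG recombinase finds each Ighv gene through the recombination signal that follows it directly: a heptamer with the consensus CACAGTG, a spacer of 23 bases, and a nonamer with the consensus ACAAAAACC. The promoters carry an octamer, ATGCAAAT, read by the factors Oct-1 and Oct-2.

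The recombination signals of the 10 genes with the largest mean usage are printed because these genes hold about as much of the Ighv RNA as all the others. Each was read from GRCm39 on the minus strand, 5′ to 3′, from the base after the annotated gene end. The heptamer and the 9 bases after a fixed spacer of 23 bases are in capitals.
Ighv1-26: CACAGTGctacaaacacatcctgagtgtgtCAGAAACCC
Ighv1-34: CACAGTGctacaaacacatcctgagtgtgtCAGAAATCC
Ighv3-6: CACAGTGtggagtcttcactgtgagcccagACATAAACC
Ighv1-19: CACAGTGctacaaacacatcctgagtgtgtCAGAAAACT
Ighv1-53: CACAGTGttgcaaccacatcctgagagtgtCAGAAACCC
Ighv1-55: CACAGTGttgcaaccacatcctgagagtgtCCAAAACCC
Ighv1-9: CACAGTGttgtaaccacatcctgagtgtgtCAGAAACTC
Ighv1-18: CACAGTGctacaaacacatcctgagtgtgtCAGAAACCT
Ighv1-81: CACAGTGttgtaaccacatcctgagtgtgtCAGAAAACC
Ighv4-1: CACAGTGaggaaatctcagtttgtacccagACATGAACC
The signal of Ighv1-26 lies at chr12:114751953-114751991 and that of Ighv4-1 at chr12:113911863-113911901. All 10 began with the consensus heptamer, and none ended with the consensus nonamer. The signals of Ighv1-34 and Ighv1-18 each differed from that of Ighv1-26 at 1 of 39 bases, both in the last 9 bases. Those of Ighv3-6 and Ighv4-1, from other families, differed from it at 22.

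Among the 72 described genes, 59 (81.9%) were followed directly by the exact heptamer, and 70 by it or by a sequence with 1 mismatch. The exact heptamer followed 22 of the 41 variable genes with a mean under 1 FPKM (53.7%) and 25 of the 70 pseudogenes (35.7%), against 57.9% of all 183. Read only at a fixed spacer of 23 bases, the exact nonamer was rare in each class, with 3, 0 and 2 genes. CAGAAACCC, the 9 bases at this place in Ighv1-26 and Ighv1-53, was the commonest among the described genes, with 20 of 72. It matches the consensus less well than the 9 bases that start 1 base earlier in these signals. Other spacings were not searched, so the place of the nonamer is uncertain. The heptamer too was read only right after the annotated end. In Ighv8-2, under 1 FPKM, and the pseudogene Ighv5-21, the exact heptamer began 1 base later and was not counted. These matches describe the reference sequence and were not tested as sites.

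The octamer stood on the gene's strand, within 250 bases before to 50 after the annotated start, in 61 of the 72 described genes (84.7%). It was present in 30 of the 41 variable genes under 1 FPKM (73.2%) and in 37 of the 70 pseudogenes (52.9%). Of 32851 RefSeq promoters of mouse genes, cut to the same 300 bases on GRCm38.p6, 0.877% held it on the gene's strand and 1.74% on either strand. Windows of 70 bases around it are shown for 4 of the 10 most used genes, from 3 families, with the octamer in capitals. All were read from the minus strand of GRCm39, 5′ to 3′.
Ighv1-34: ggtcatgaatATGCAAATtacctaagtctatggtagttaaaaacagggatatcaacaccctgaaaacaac
Ighv1-18: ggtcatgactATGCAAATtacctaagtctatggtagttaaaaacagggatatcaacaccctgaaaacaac
Ighv3-6: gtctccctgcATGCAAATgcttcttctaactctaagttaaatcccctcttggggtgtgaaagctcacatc
Ighv4-1: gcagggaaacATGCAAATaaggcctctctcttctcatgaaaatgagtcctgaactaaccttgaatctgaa
The octamer began 71 bases before the annotated start in Ighv1-34 and 108 before it in Ighv1-18, so the annotated starts of these alike promoters differ. It began 109 bases before the start of Ighv3-6 and 57 before that of Ighv4-1. These letters were not in the window of Ighv1-26, the most used gene.

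Of the 183 genes, 113 were above 0 in at least 1 library and 70 were listed at 0 in all 4. The 113 comprised 101 variable genes and 12 pseudogenes. No pseudogene reached a mean of 1 FPKM, and the highest of them, Ighv1-2, had 0.721 FPKM. Pseudogenes made up 0.592% (RVC 1), 0.881% (RVC 2), 0.883% (fresh frozen 1) and 0.676% (fresh frozen 2) of the summed Ighv FPKM. Of the 113 variable genes, 12 were at 0 in every library. Of the 72 described genes, 65 were above 0 in all 4 libraries and 34 were at 1 FPKM or more in each, while 27 had a mean of at least 5 FPKM and 9 of at least 10. The lower and upper bounds that Cufflinks gives, summed over transcripts, were summarised over the described genes at 1 FPKM or more in the given library. In the median such gene they lay 39.5%, 45.0%, 52.6% and 36.5% of the value away in RVC 1, RVC 2, fresh frozen 1 and fresh frozen 2. Values under 1 FPKM are not covered.

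Ighv1-26 was the most used gene in all 4 libraries. Its level was 93.6 FPKM in RVC 1 and 80.8 in RVC 2, against 49.3 in fresh frozen 1 and 67.2 in fresh frozen 2. Both RVC libraries were above both fresh frozen ones. As a usage share, its FPKM over the sum of the 72 genes in the same library, it took 15.0%, 16.3%, 20.7% and 15.0%, or 16.7% ± 2.72 (SD, n = 4). Its share was thus largest in fresh frozen 1, where its FPKM was lowest. The second gene of each library held 7.44%, 8.46%, 9.02% and 7.15%, so Ighv1-26 was about 2 times as abundant as the next gene everywhere.

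Ighv1-26 (ENSMUSG00000094546, chr12:114751992-114752425) has a close relative, Ighv1-18 nearer the J segments, which was used far less. The last 280 bases of both V exons are shown because the level of each depends on telling them apart, with the bases that differ in capitals. Both run 5′ to 3′ on the minus strand of GRCm39, from chr12:114751992-114752271 and chr12:114646252-114646531.
Ighv1-26: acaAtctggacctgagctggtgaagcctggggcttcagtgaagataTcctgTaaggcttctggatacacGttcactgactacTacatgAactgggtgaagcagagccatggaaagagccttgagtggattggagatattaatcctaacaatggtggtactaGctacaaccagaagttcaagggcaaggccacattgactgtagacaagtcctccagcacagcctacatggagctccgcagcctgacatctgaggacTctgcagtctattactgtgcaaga
Ighv1-18: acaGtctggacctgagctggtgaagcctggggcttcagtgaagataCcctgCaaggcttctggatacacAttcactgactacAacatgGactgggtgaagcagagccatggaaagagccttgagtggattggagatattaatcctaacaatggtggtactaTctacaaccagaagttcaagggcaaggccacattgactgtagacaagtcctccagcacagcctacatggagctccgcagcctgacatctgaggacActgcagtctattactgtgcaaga
The printed stretches differed at 8 bases (97.1% identity), and the longest run they shared was 94 bases, under the read length of 150 bases. Ighv1-18 had 10.2, 9.10, 8.76 and 9.48 FPKM in RVC 1, RVC 2, fresh frozen 1 and fresh frozen 2. It was the steadiest of the 10 most used genes in FPKM, at 9.39 ± 0.624 (SD, n = 4).

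Close relatives were common in the locus. Over the last 280 bases, the median described gene was 95.7% identical to its nearest other member, and 6 of 72 were at least 98% identical. Even so, in 67 of the 72 every stretch of 150 bases of the transcript was found in no other member. The exceptions were Ighv2-2, the pair Ighv1-62-2 and Ighv1-71, which were 100% identical, and the pair Ighv1-62-3 and Ighv1-72, at 99.3%. Reads from within a pair could be divided between its genes by the authors' estimation, so the levels of these 5 genes are uncertain. Of stretches of 75 bases, 94.1% were found in no other member for the median described gene, and 83.8% for Ighv1-26. How far reads with less V sequence affect the levels of other genes was not tested. Ighv1-72, whose product dominates the antibody response of this strain to the hapten NP, had 7.67, 7.26, 5.09 and 6.31 FPKM in RVC 1, RVC 2, fresh frozen 1 and fresh frozen 2.

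Ighv1-34 had 31.2, 26.6, 21.5 and 26.9 FPKM in RVC 1, RVC 2, fresh frozen 1 and fresh frozen 2, with 6.34% ± 1.83 of usage (SD, n = 4). Ighv3-6, the leading gene outside the Ighv1 family, had 39.5, 13.5, 12.5 and 28.6 FPKM in the same order. It was high in 1 library of each group and low in the other. Ighv1-9 followed the same pattern, with 18.4, 4.34, 4.28 and 18.6 FPKM.

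Ighv1-19 had 46.5 and 22.2 FPKM in the RVC libraries and 7.34 and 13.3 in fresh frozen 1 and 2, and its groups did not overlap. Ighv1-53 had 14.6 and 22.8 FPKM in RVC 1 and 2, and its lowest and highest values were both fresh frozen, with 2.40 for fresh frozen 1 and 32.0 for fresh frozen 2. Its groups overlapped. Ighv1-55 stood at 7.52, 5.89, 5.72 and 22.7 FPKM, high only in fresh frozen 2 among the 4 libraries. Ighv1-81 had 25.2, 7.06, 4.66 and 8.10 FPKM and was highest in RVC 1.

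**Figure D1:**
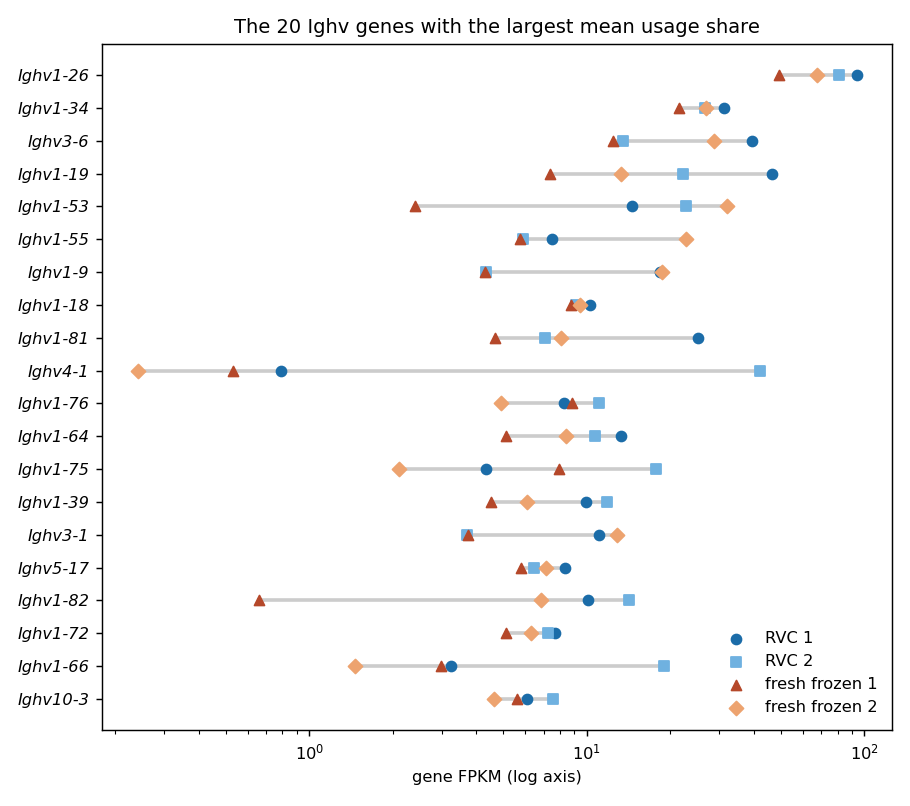
Gene FPKM, on a log axis, of the 20 Ighv genes with the largest mean usage share, with 1 point for each library and a grey line from the lowest to the highest. Ighv1-26 lies between 49.3 and 93.6 FPKM in every library, whereas Ighv4-1 reaches 42.0 FPKM in RVC 2 and is under 1 FPKM in the other 3.

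Usage was uneven but broad. The 10 most used genes by mean share held 46.0% of usage in RVC 1 and 47.2% in RVC 2, against 49.1% in fresh frozen 1 and 50.7% in fresh frozen 2. Counting down from the top gene of each library, 11, 9, 8 and 9 genes held 50% of the usage, and 43, 41, 33 and 38 held 90%. The effective number of genes, the exponential of the Shannon entropy of the shares, is the number of equally used genes that would give the same evenness. It was 40.0 in RVC 1 and 36.0 in RVC 2, against 29.5 in fresh frozen 1 and 35.8 in fresh frozen 2. Both RVC values were above both fresh frozen values, with RVC 2 and fresh frozen 2 close together. The means were 38.0 ± 2.78 and 32.7 ± 4.43 (SD, n = 2 each; exact permutation test, two-sided, p = 0.33, the smallest p that 2 against 2 can give). The inverse Simpson index, which weights the leading genes more, was 22.4, 19.7, 14.9 and 20.9, and there the groups overlapped (exact permutation p = 0.667).

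The library with the fewest Ighv FPKM was also the least diverse. Fresh frozen 1 had the lowest FPKM of the 4 libraries for 49 of the 72 genes, against 3 for RVC 1, 5 for RVC 2 and 15 for fresh frozen 2. RVC 1 had the highest for 36, RVC 2 for 17, fresh frozen 1 for 5 and fresh frozen 2 for 14. Of all 183 genes, 76, 67, 40 and 59 reached 1 FPKM in RVC 1, RVC 2, fresh frozen 1 and fresh frozen 2. The ratio of coverage to FPKM put the relative depth of the libraries at 81.8%, 79.8%, 72.6% and 100% of the deepest, so fresh frozen 1 was also the shallowest. The part of depth in the diversity was not tested.

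Ighv usage overlapped between libraries by 64.0 to 74.8%, taking for each gene the smaller of its 2 shares and summing over the 72 genes. RVC 1 and RVC 2 overlapped by 69.9%, and fresh frozen 1 and 2 by 67.1%. Across groups, it was highest between RVC 1 and fresh frozen 2 (74.8%) and lowest between RVC 1 and fresh frozen 1 (64.0%). Libraries of the same group were thus not the most alike pair.

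In 12 of the 72 genes, the highest library was at least 4 times the next. RVC 1 held 6 of them, RVC 2 held 4, and each fresh frozen library held 1. Together they made 8.74% of the described FPKM in RVC 1 and 14.6% in RVC 2, against 3.80% in fresh frozen 1 and 1.16% in fresh frozen 2. With a mean of at least 5 FPKM as the limit, 2 such genes were left, Ighv4-1 and Ighv1-66, both highest in RVC 2.

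Ighv4-1 (ENSMUSG00000076655, chr12:113911902-113912416), the only variable gene of its family, had 0.79 FPKM in RVC 1 and 42.0 in RVC 2, against 0.53 in fresh frozen 1 and 0.24 in fresh frozen 2. It was the second most used gene of RVC 2, at 8.46% of usage, and was 53.3 times the next library there. The bounds in RVC 2 were 36.8 and 47.3 FPKM, and the highest upper bound in the other libraries was 1.49. The pseudogene Ighv4-2 is its nearest relative in sequence (95.7% identity, 12 differences over 280 bases) and had 0, 2.55, 0.18 and 0 FPKM in RVC 1, RVC 2, fresh frozen 1 and fresh frozen 2, so it too was highest in RVC 2. Without Ighv4-1, the effective number of genes in RVC 2 was 36.6.

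RVC 1 held the largest number of such genes, at moderate levels. Ighv13-2 had 11.6 FPKM in RVC 1, was listed at 0 in RVC 2 and fresh frozen 1, and had 1.71 FPKM in fresh frozen 2. Ighv3-8 had 10.5 FPKM there, against 0.52, 0.73 and 1.45 in RVC 2, fresh frozen 1 and fresh frozen 2. Ighv2-9-1 had 8.59 FPKM in RVC 1 and 1.71, 0.31 and 1.80 in the other 3. The remaining genes of RVC 1 were Ighv1-58, Ighv1-62-2 and Ighv3-4, with 7.25 to 8.41 FPKM there. Ighv1-62-2 belongs to the identical pair, and its partner Ighv1-71 had its highest level in RVC 1 as well, at 6.25 FPKM.

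Besides Ighv4-1, RVC 2 held Ighv1-66, with 18.9 FPKM there and 3.23, 2.97 and 1.46 in RVC 1, fresh frozen 1 and fresh frozen 2. Ighv2-6 (6.84 FPKM) and Ighv2-5 (4.72 FPKM) were also highest in RVC 2. Fresh frozen 1 held Ighv14-1, with 9.05 FPKM against 0.84, 0.33 and 0.38 in RVC 1, RVC 2 and fresh frozen 2, 10.8 times the next. Fresh frozen 2 held Ighv1-49, with 5.21 FPKM there, and it was listed at 0 in the other 3. Such genes occurred in every library. That the other library of the same group was lower is set by the rule that picked them. Ighv1-49 also passed the mean of 1 FPKM only through fresh frozen 2. Ighv4-1, Ighv3-4 and Ighv14-1 likewise passed only through their highest library, being under 1 FPKM in every other. For Ighv13-2, Ighv3-8, Ighv2-5 and Ighv2-6 too, the mean of the libraries other than the highest was under 1 FPKM. The level in the highest library thus also set that these genes were described.

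**Figure D2:**
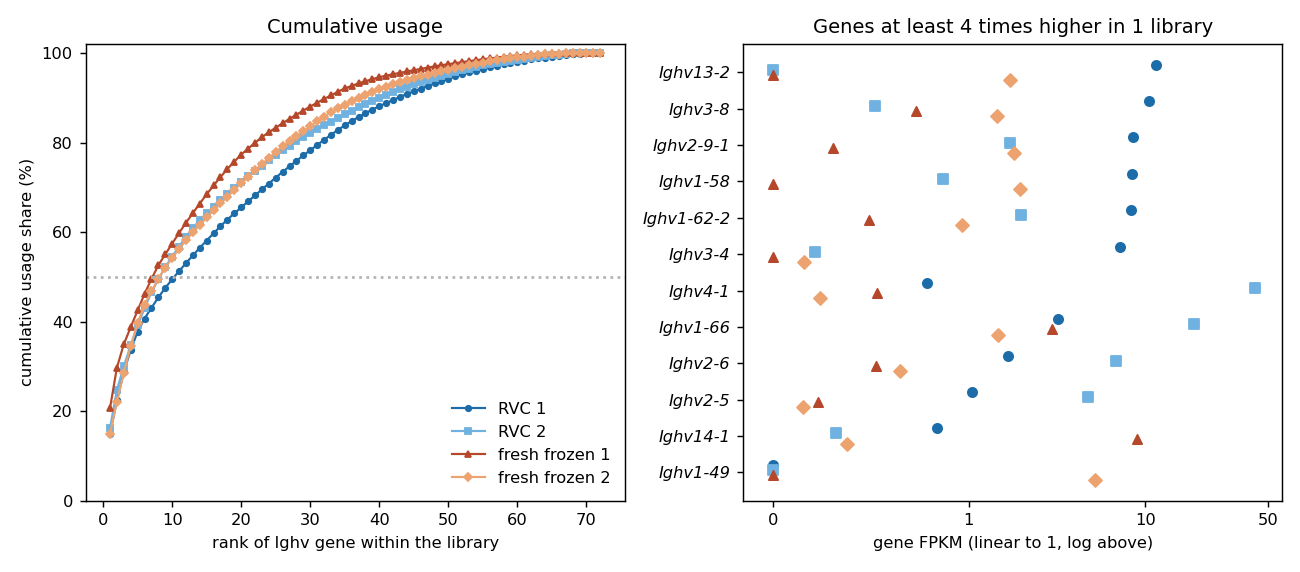
Left, the cumulative usage share (%) against the rank of the Ighv gene within each library, 1 line for each library, with 50% dotted. Right, the FPKM (linear up to 1, log above) in the 4 libraries of the 12 genes at least 4 times higher in 1 library than in the next. Fresh frozen 1 has the steepest line on the left, reaching 50% with 8 genes. Each row on the right has 1 point apart to its right, as the rule of choice sets.

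By family, the groups of similar sequence that the first number of the name marks, Ighv1 led in all 4 libraries. It held 65.9% of usage in RVC 1 and 67.7% in RVC 2, against 68.7% in fresh frozen 1 and 68.8% in fresh frozen 2, or 67.8% ± 1.33 (SD, n = 4). It supplied 38 of the 72 described genes (52.8%). Without Ighv4-1, its share in RVC 2 was 73.9%. Ighv3 had the second largest mean share, 7.82%, with 10.9%, 3.62%, 7.11% and 9.63% in RVC 1, RVC 2, fresh frozen 1 and fresh frozen 2, from 4 described genes. In RVC 2 it was below Ighv4 and Ighv5. Ighv5, with 7 described genes of 21 named ones, held 4.43%, 5.01%, 7.07% and 4.63%.

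The other families were each under 4% in the mean. Ighv14 had all 4 of its genes among those described and 3.42% ± 1.55 of usage (SD, n = 4). Ighv8 had 3 of 16, with 2.50% of usage, and Ighv2 had 6 of 11, with 2.95%. Ighv10 ranged from 1.16% in RVC 1 to 4.65% in fresh frozen 1, and Ighv4 from 0.054% in fresh frozen 2 to 8.46% in RVC 2. Families 11, 12, 15 and 16 had no gene with a mean of 1 FPKM. The next 3 genes, known from antibodies of innate-like B-1 cells, were named after their values were seen. Ighv11-2 had 0.41, 0.10, 0 and 0 FPKM and Ighv12-3 had 0.43, 0.21, 0 and 0 in RVC 1, RVC 2, fresh frozen 1 and fresh frozen 2. Ighv7-1, the variable gene of the T15 antibodies to phosphorylcholine, had 4.03, 0.81, 0.63 and 6.09 FPKM in that order.

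**Figure D3:**
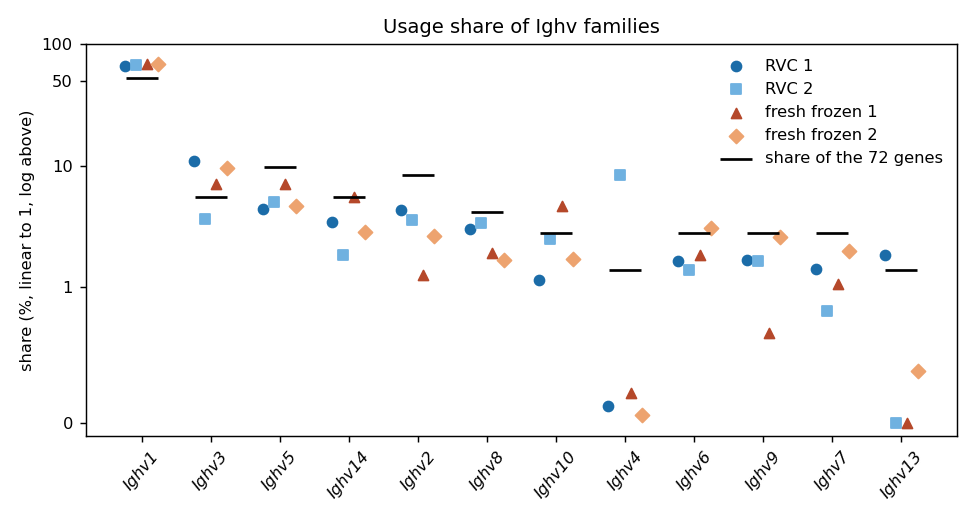
Usage share (%, linear up to 1 and log above) of each Ighv family with a described gene, with 1 point for each library and a black bar at the family's share of the 72 genes. Ighv1 lies above its bar in all 4 libraries, at 65.9 to 68.8% of usage against 52.8% of the genes, and the Ighv4 points are far apart.

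Position along the locus was set as the distance from Ighj1, the first J segment. The third stretch of 500 kb, from 1000 to 1500 kb, held the most usage, with 41.2% in RVC 1 and 38.4% in RVC 2, against 47.9% in fresh frozen 1 and 38.4% in fresh frozen 2, from 14 described genes. It contains Ighv1-26, Ighv1-34, Ighv1-19, Ighv1-9 and Ighv1-18. The 500 kb nearest Ighj1 also had 14 described genes but 8.85% ± 0.392 of usage (SD, n = 4), the steadiest share of the 6 stretches. The next stretches from 500, 1500, 2000 and 2500 kb held 17.5%, 11.8%, 18.2% and 2.17% in the mean.

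The ends of the used range were Ighv2-2, 158 kb from Ighj1, and Ighv1-85, 2570 kb from it. Ighv2-2 had 10.9, 1.08, 0.67 and 6.90 FPKM in RVC 1, RVC 2, fresh frozen 1 and fresh frozen 2, and its transcript shares sequence with Ighv2-4. Ighv1-85 had 2.55, 1.09, 0 and 2.27 FPKM in the same order. Genes from both ends of the locus were thus present in both groups, apart from Ighv1-85 in fresh frozen 1.

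**Figure D4:**
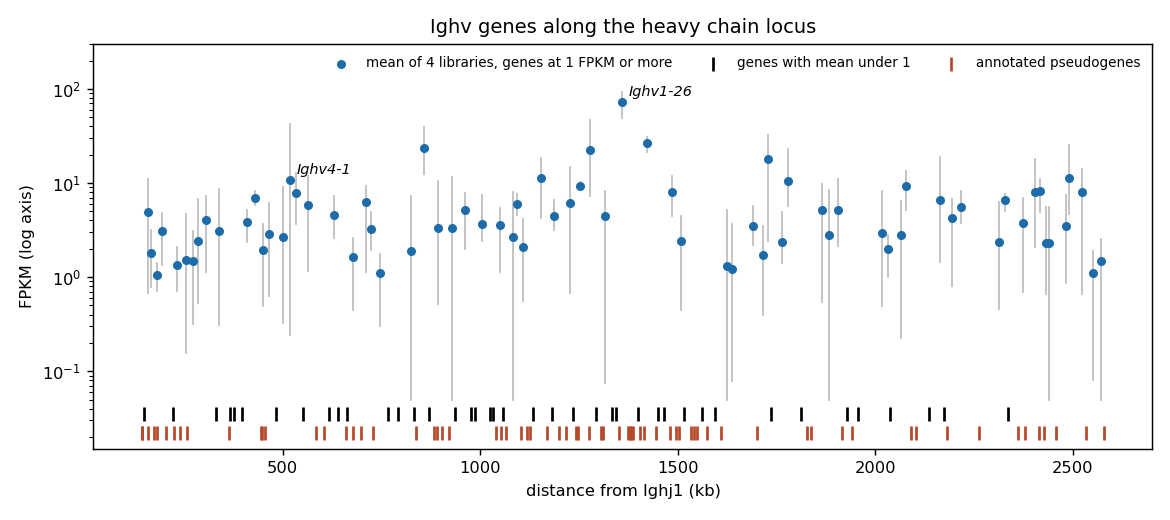
Mean FPKM of the 4 libraries (log axis) of the 72 described Ighv genes against their distance from Ighj1 in kb, with grey lines from the lowest to the highest library, and a library at 0 drawn just above the ticks. Black ticks are variable genes with a mean under 1 FPKM and red ticks pseudogenes, and these lie among the described genes over the whole locus.

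The summed FPKM of all 183 Ighv genes was 647 in RVC 1 and 512 in RVC 2, against 244 in fresh frozen 1 and 460 in fresh frozen 2. Both RVC libraries were above both fresh frozen ones, RVC 2 and fresh frozen 2 being the closest. The means were 580 ± 95.4 and 352 ± 153 (SD, n = 2 each), a ratio of 1.64 (exact permutation test, two-sided, p = 0.33). In bulk tissue, fewer cells of a type and less RNA per cell cannot be told apart. The 8 heavy chain constant genes summed to 297, 254, 69.1 and 140 FPKM, a ratio of 2.63 (exact permutation p = 0.33). Igha alone made up 97.9%, 96.1%, 96.6% and 95.8% of that sum.

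Per FPKM of heavy chain constant genes, the order of the groups turned. The ratio of summed Ighv to summed constant FPKM was 2.18 in RVC 1 and 2.02 in RVC 2, against 3.54 in fresh frozen 1 and 3.28 in fresh frozen 2. Here both RVC libraries were below both fresh frozen ones, with an RVC value of 0.615 of the fresh frozen value (exact permutation p = 0.33). Thus the constant genes differed more between the groups than the variable genes did. Igha had 291, 244, 66.7 and 134 FPKM in RVC 1, RVC 2, fresh frozen 1 and fresh frozen 2 (log2 difference 1.49, SE 0.30, limma adjusted p = 0.129).

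**Figure D5:**
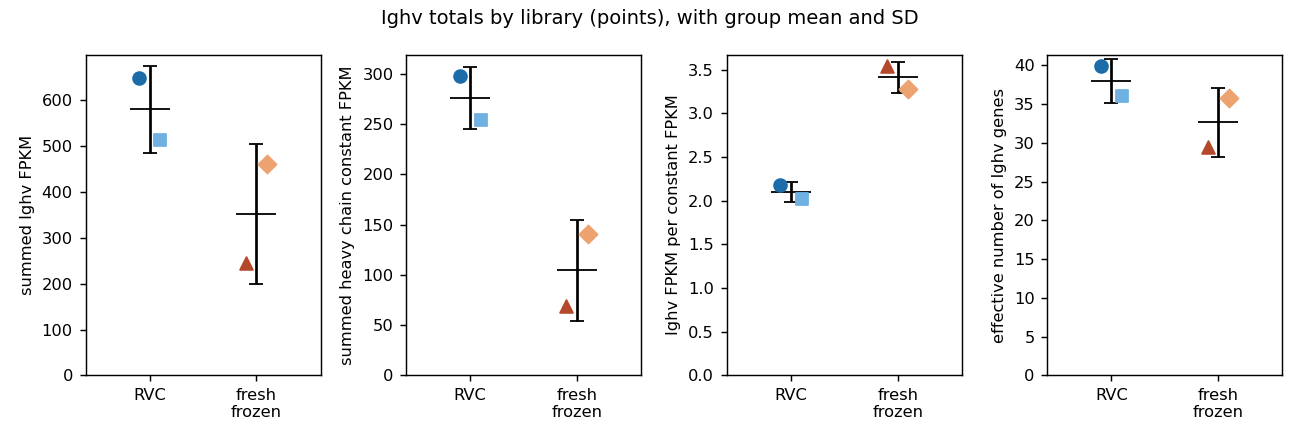
Summed Ighv FPKM, summed heavy chain constant FPKM, Ighv FPKM per constant FPKM and the effective number of Ighv genes, left to right, for each library (dark points, library 1; light points, library 2), with the group mean (line) and SD (bars; n = 2). RVC is above fresh frozen in each panel but the third, where it is below (2.02 and 2.18 against 3.28 and 3.54).

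No single Ighv gene passed the test between RVC and fresh frozen. limma, fitted to log2(scaled FPKM + 1) of 13771 genes, called 0 of the 72 Ighv genes at an adjusted p under 0.05, against 5 genes or 0.0363% of all genes tested, and the lowest adjusted p of an Ighv gene was 0.101. At an unadjusted p under 0.05 there were 30 Ighv genes (41.7%), 29 higher and 1 lower in RVC, against 18.4% of all genes (9.38% higher and 8.99% lower). Groups that did not overlap were found for 30 Ighv genes higher in RVC (41.7%, against 26.5% of all genes) and for 1 lower (1.39%, against 26.6%). Fitted differences were above 0 for 59 of the 72 and below 0 for 13, with a median of 0.67 on the log2 scale, against 0.0066 over all genes, and a range from -1.32 to 2.67. The genes of the locus come from the same cells of each library, so they are not independent.

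These values depended on single libraries. Without RVC 1, the median log2 difference of the Ighv genes was 0.50. Of 65 tested, 33 did not overlap and were higher in RVC (50.8%, against 36.3% of all genes), and 3 were lower (against 36.2%). Without RVC 2 the median was 0.80, with 45 of 69 higher (65.2%, against 38.3%) and 2 lower (against 38.05%). Without fresh frozen 1 the median was 0.38, with 35 of 73 higher (47.9%, against 38.6%) and 14 lower (against 38.6%). Without fresh frozen 2 it was 1.12, with 62 of 73 higher (84.9%, against 40.2%) and 6 lower (against 40.0%).

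With 1 library left out, limma called a few Ighv genes in place of 0, in directions that depended on the library. Without RVC 1 it called 4, all higher in RVC, among 29 called of all 13763 genes. Without RVC 2 it called 5, all higher, among 8 of 13732. Without fresh frozen 1 it called 1 higher and 4 lower, among 40 of 13829, and without fresh frozen 2 it called 3 higher and 1 lower, among 22 of 13744. In these fits the lone library of a group is assumed to vary like those of the other group.

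The Ighv genes named for the smallest p were of low to moderate level, with means from 2.28 FPKM (Ighv1-78) to 8.08 (Ighv1-39). Ighv5-9-1 had 7.25 and 5.67 FPKM in RVC 1 and 2 and 2.18 and 1.13 in fresh frozen 1 and 2. Both RVC values were above both fresh frozen ones, by 1.51 on the log2 scale (SE 0.21, limma adjusted p = 0.101). Ighv1-39 had 9.92 and 11.8 FPKM against 4.51 and 6.10, a log2 difference of 0.92 (SE 0.17, limma adjusted p = 0.129).

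Ighv1-15 had 14.9 and 6.62 FPKM in RVC 1 and 2 against 0.68 and 2.43 in fresh frozen 1 and 2, with groups that did not overlap (limma adjusted p = 0.129). Ighv1-78 had 5.60 and 2.66 against 0 and 0.86 FPKM, and Ighv1-5 had 8.07 and 2.28 against 0.36 and 0. Both were under 1 FPKM in each fresh frozen library, so they met the mean of 1 FPKM only through the RVC libraries. The single gene with both RVC values below both fresh frozen ones was Ighv1-77, with 0.66 and 1.09 against 1.78 and 5.62 FPKM (log2 difference -1.20, SE 0.37, limma adjusted p = 0.183). For Ighv1-26 the log2 difference was 0.59 (SE 0.17, limma adjusted p = 0.163).

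Other genes of the antibody pathway gave the setting. Igkc, the kappa light chain constant gene, had 525, 484, 172 and 307 FPKM in RVC 1, RVC 2, fresh frozen 1 and fresh frozen 2 (log2 difference 1.14, limma adjusted p = 0.131), and the 4 light chain constant genes summed to 648, 581, 232 and 373. Of 15 plasma cell genes, 8 were tested and 0 passed by limma, with a median log2 difference of 0.10. In 4 of the 8 both RVC values were higher (against 26.5% of all genes), and in 2, Fkbp11 and Cd38, lower (against 26.6%). Derl3, Irf4, Pou2af1, Prdm1, Slamf7, Tnfrsf13b and Tnfrsf17 were under 1 FPKM in the mean and were not tested, so the median leaves them out. Among these, Irf4, Pou2af1, Prdm1, Tnfrsf13b and Tnfrsf17 were higher in both RVC libraries, whereas the groups of Derl3 and Slamf7 overlapped. Jchain, which links IgA into dimers, had 99.4, 85.8, 68.9 and 82.1 FPKM, and Mzb1, a chaperone of antibody assembly, had 4.43, 4.15, 2.31 and 2.59. Pigr, the epithelial receptor that exports IgA, had 424, 418, 474 and 477 FPKM and was lower in both RVC libraries.

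The 12 mature B cell genes summed to 4.95, 5.63, 1.53 and 7.59 FPKM in RVC 1, RVC 2, fresh frozen 1 and fresh frozen 2, none reached a mean of 1 FPKM, and none was at 0 in all 4 libraries. The 7 germinal centre genes summed to 9.88, 9.57, 12.0 and 9.23 FPKM, and 3 were tested, with 0 called by limma. These were Fas, Bcl6 and Rgs13, with means of 5.90, 2.02 and 1.25 FPKM. Of the 5 genes of V(D)J recombination and the pre-B cell receptor, Rag1, Rag2, Dntt and Igll1 were at 0 in all 4 libraries, and Vpreb1 had at most 0.41 FPKM. The 4 J segments, 48 to 54 bases long, were listed at 0, and J usage is not described.

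Markers of smooth muscle and endothelium differed in the same direction as most Ighv genes. So did the heavy and light chain constant genes, each list with 3 of 4 tested genes higher in both RVC libraries and 0 lower. In no other list were most of the tested genes higher in both RVC libraries. Over all genes tested, 26.5% were higher in both RVC libraries than in both fresh frozen ones. All 6 smooth muscle genes were higher in both RVC libraries (median log2 difference 0.88, 0 called by limma), with sums of 1089, 1629, 666 and 718 FPKM in RVC 1, RVC 2, fresh frozen 1 and fresh frozen 2. All 4 endothelial genes were likewise higher (median 0.56, 0 called by limma), with sums of 16.1, 15.5, 8.18 and 10.1 FPKM. Ccl21a, a chemokine of lymphatic vessels and lymphoid stroma, had 63.7, 82.1, 31.6 and 33.2 FPKM. The only other tested gene of the 5 on the lymphoid stroma list, Cxcl13, had 1.27, 1.37, 1.24 and 1.62 FPKM, with groups that overlapped. Ccl19, Glycam1 and Madcam1 were under 1 FPKM in the mean. Of 9 T cell genes, 2 were tested: Thy1 was higher in both RVC libraries, and the groups of Trbc2 overlapped. The 4 epithelial genes summed to 3065, 2977, 3131 and 2482 FPKM, with groups that overlapped. The part of the tissue's makeup in the Ighv differences was not tested.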

How the data were processed

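RNA was measured in 4 libraries, 2 RVC and 2 fresh frozen, made from rRNA-depleted total RNA and read as pairs of 150 bases, per the labels' protocols. Per the series' design text and the submitters' processing notes, the authors used TopHat 2.1.1 to align reads to GRCm39 and Cufflinks 2.2.1 to estimate transcript levels, at default parameters. The deposited files hold FPKM per transcript with lower and upper bounds, a coverage signal and transcript length, per the file headers. The number of fragments is unknown, so no count model was used. The annotation release and strand setting are not given in the sources used here. Reads across V-D-J joins or with somatic mutations differ from the reference, and their loss was not tested.

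Gene FPKM were summed over transcripts. For limma 3.58.1 (R 4.3.3), FPKM were scaled by median ratios (factors 0.992 to 1.01) and a pseudocount of 1 was added before log2, so fold changes of low genes are understated. Genes with a mean of at least 1, a transcript of at least 300 nt and status OK were tested with a trend, two-sided, and p-values were adjusted by Benjamini-Hochberg over all of them. On simulated data of 13771 genes with 200 genes changed 4-fold, 99.3% were recovered and 5.28% of calls were false. The simulated spreads came from the distribution that limma fitted over all genes, and only genes above a set mean level were changed. The recovery therefore does not measure the power for Ighv genes of low level or large spread. Library totals used exact permutation tests (scipy 1.17.1). Motifs were searched on GRCm39. Gene types came from GENCODE, and promoters for comparison from RefSeq (GRCm38.p6). Identity was computed with edlib 1.3.9.post1.

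The named genes were the 10 of largest mean share, up to 3 library-specific genes a library by FPKM, up to 5 genes of smallest p in each direction among those whose groups did not overlap, the most proximal and the most distal described gene, and genes of the marker lists. Members, lists and rules were chosen with earlier results of these data known. Alternatives changed the pseudocount, scaling, filters, trend, usage definition, replicate block and each library in turn.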

Additional observations from a re-analysis of the deposited data

How the results depend on the processing

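Ighv1-26 stayed the most used gene in the main analysis and in all 9 alternatives run for it. Of the summary values recomputed, 62 stayed within their limits, 23 moved and 1 turned direction; of the single-gene log2 differences, 298 were unchanged in call and direction, 21 passed the threshold and 12 turned direction.

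The number of Ighv genes called by limma (0, with 30 at an unadjusted p under 0.05, and 10 to 45 over the alternatives) was 4 to 5 without one library each. The count over all genes (5) was 0 without the filter on low values, 0 without the trend, 2 at a mean of at least 5, and 8 to 40 without one library each. The labels do not say that equal replicate numbers mark a shared mouse or day. The deviations of same-numbered libraries were only weakly related, with a negative sign (correlation -0.134 over 13771 genes). With the replicate block, 14 Ighv genes (13 higher, 1 lower) and 112 of all genes were called. With the crossed replicate block, chosen after seeing the data, the numbers were 3 and 12.

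Per heavy chain constant FPKM, the ratio of the Ighv sums was 0.615 instead of 1.64. At a mean of at least 5 FPKM, 27 genes were described, Ighv1-26 held 22.6% and the Ighv1 family 75.5%, and 2 genes were library-specific; over every gene above 0, the numbers of genes were 113 and 26. At 2 and 8 times the next library, 28 and 4 genes were library-specific. These limits do not apply to the Ighv sum.

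Leaving out one library each turned the log2 difference of 7 genes, none called in the full data. It ranged from -0.46 to 1.03 for Ighv3-6, from -0.79 to 2.51 for Ighv1-53, from -1.64 to 0.20 for Ighv1-55, from -0.96 to 0.96 for Ighv1-9, from -0.0010 to 0.16 for Ighv1-18, from -0.81 to 1.71 for Ighv2-2 and from -0.27 to 1.45 for Ighv1-85. Ighv1-9, at 0.0017, was -0.0017 without scaling and -0.0013 without the length minimum. The cause was not tested. The bounds of the values, not the unknown fragment number, give the only precision, and genes near 1 FPKM are the least certain.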
